A study of Mus musculus with 8 samples.

Results

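Levels of 9 genes of the endocytic machinery, through which the visceral endoderm of the mouse yolk sac takes up maternal proteins, were examined in yolk sacs in which endothelial Notch signaling was raised or lowered. They were chosen by name, with earlier results of these data known. Lrp2, Cubn, Amn and Fcgrt stood for receptors, Lrpap1 for a receptor chaperone and Dab2 for an adaptor. Cltc, Myo6 and Rab11a stood for the coat, the motor and the recycling step. All 9 had a probe set that maps to 1 gene, out of 18194 such genes, and all 9 were among the 10913 genes bright enough to be tested. Where a gene had several probe sets, the brightest on average, taken over the 8 arrays, stood for it and the others served as a check.

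The arrays measured total RNA of whole yolk sac at embryonic day 9.5, in 4 groups of 2 arrays. EC-N1ICD embryos carried Tie2 Tg/0 with ROSA +/N1ICD on C57BL6, so that Cre removes a stop cassette and the active Notch1 intracellular domain is made, and their wild type controls were Tie2 0/0 with ROSA +/+ on C57BL6. EC-Rbpj-KO embryos were Tie2-Cre with Rbpj flox/flox on a mixed strain, which removes the DNA-binding partner of Notch, and their controls are labelled wild type on a mixed strain with no genotype given. Each mutant was set against the wild type of its own set, so the 2 comparisons share no control array. Tie2-driven Cre acts in endothelial cells and blood lineages, and whether it acted in the endoderm was not measured here. The labels do not say whether an array holds 1 yolk sac or a pool, so p-values measure the spread between arrays only, and with 2 arrays a group an exact permutation test could not go below p = 0.333.

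The visceral endoderm is the outer layer of the yolk sac, an absorptive epithelium with a brush of microvilli and a dense apical endocytic apparatus. Megalin, the product of Lrp2, and cubilin, the product of Cubn, bind a wide range of proteins, vitamin carriers and lipoproteins at this surface. Cubilin has no membrane anchor of its own and is carried by amnionless, the product of Amn. Dab2 links the receptors to clathrin, Myo6 pulls the coated vesicles inward along actin, and Rab11a returns emptied receptors to the surface. The neonatal Fc receptor, the product of Fcgrt, binds IgG and albumin in acidic endosomes and spares them from breakdown. Several of the 9 genes, among them Cltc, Rab11a, Lrpap1 and Myo6, are used by many cell types, so their signal in whole yolk sac cannot be placed in the endoderm.

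The start regions of the genes whose signal was lower in EC-Rbpj-KO are shown because that model removes a DNA-binding factor, and those of Dab2 because they alone among the 9 genes held a match to any of 5 motifs. Each window is the 250 bases before a RefSeq start on GRCm38.p6, read 5′ to 3′ in the direction of the gene, with motif matches in capitals. Lrp2 is at chr2:69424335-69586029 on the minus strand, and its window at chr2:69586030-69586279. Cubn is at chr2:13276338-13491876 on the minus strand, and its window at chr2:13491877-13492126. Fcgrt is at chr7:45092993-45103822 on the minus strand, and its window at chr7:45103823-45104072. Dab2 is at chr15:6299788-6440715 on the plus strand, with windows of 2 starts at chr15:6299539-6299788 and chr15:6386498-6386747.
Lrp2: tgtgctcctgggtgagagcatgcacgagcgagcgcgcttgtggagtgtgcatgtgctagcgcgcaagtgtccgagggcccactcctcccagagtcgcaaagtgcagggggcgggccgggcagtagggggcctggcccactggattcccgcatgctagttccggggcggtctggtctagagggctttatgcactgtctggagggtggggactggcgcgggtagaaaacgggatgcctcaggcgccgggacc
Cubn: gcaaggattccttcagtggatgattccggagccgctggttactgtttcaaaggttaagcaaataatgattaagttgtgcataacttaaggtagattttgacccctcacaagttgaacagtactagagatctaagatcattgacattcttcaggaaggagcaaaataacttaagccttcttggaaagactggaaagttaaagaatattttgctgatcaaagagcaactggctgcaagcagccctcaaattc
Fcgrt: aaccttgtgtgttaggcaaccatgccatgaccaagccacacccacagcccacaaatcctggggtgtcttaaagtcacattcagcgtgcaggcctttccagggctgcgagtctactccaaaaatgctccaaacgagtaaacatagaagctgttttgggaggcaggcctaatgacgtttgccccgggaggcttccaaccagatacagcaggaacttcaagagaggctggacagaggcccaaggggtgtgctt
Dab2, upstream start: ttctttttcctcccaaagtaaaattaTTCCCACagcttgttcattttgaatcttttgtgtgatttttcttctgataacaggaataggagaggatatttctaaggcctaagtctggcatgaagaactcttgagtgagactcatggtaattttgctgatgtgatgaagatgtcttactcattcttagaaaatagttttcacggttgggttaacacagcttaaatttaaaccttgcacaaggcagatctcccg
Dab2, downstream start: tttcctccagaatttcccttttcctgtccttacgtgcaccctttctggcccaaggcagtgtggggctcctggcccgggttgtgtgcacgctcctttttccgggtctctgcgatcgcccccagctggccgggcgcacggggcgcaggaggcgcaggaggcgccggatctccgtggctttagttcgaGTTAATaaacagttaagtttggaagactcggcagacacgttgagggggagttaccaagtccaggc
The capitals in the first Dab2 window spell TTCCCAC, the reverse of the RBPJ letters GTGGGAA, and lie 224 bases before the start. Those in the other Dab2 window spell the HNF1 letters GTTAAT, 65 bases before the start. Letters were searched on both strands, and of 32851 windows of this length 5.42% held GTGGGAA, 1.2% the HNF4 letters CAAAGTCC, 6.43% GTTAAT, 9.99% the GATA letters AGATAA and 12.4% the TATA letters TATAAA. The windows of Lrp2, Cubn and Fcgrt held none of these letters, and G and C made up 66.4% of the Lrp2 window, 53.2% of the Fcgrt window and 39.6% of the Cubn window. A match of letters is a description of the sequence and not a measurement of binding.

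Signals are linear array values with no unit and are compared for the same probe set across arrays, not to rank genes by level. Endoderm markers were read in all 4 groups. None of the 17 with a probe set was below the array median on every array. That is a low bar, since the median over all probe sets ran from 38 to 51. Afp, an endoderm plasma protein, read between 26543 and 29705 over the 8 arrays. Ttr, the thyroxine carrier of the endoderm, read between 26233 and 29993. The median signal of the tested genes ran from 436 to 582, and replicate arrays correlated at 0.986 to 0.99 over log2 signal.

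As a check of the labels, Rbpj read 470 and 497 in EC-Rbpj-KO yolk sacs against 984 and 919 in their wild type, a log2 change of -0.98 (SE 0.17, limma adjusted p = 0.00866), and in EC-N1ICD 776 and 1013 against 915 and 887. Xist, expressed from the inactive X chromosome of females, read 3600 and 3730 in EC-N1ICD and 2005 on EC-Rbpj-KO replicate 1, against 77 to 96 on the other 5 arrays. The Y-linked Eif2s3y read 9 to 12 on those 3 arrays and 702 to 870 on the others. Sex therefore went with genotype in the N1ICD set, where the effects of the 2 cannot be told apart, and split the EC-Rbpj-KO pair. Replicate 1 of each mutant also has another leading number in its title than the other 3 arrays of its set, whose meaning is not stated.

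In wild type yolk sac, the receptors and their adaptor were readily measured in both sets. Lrp2 read 1512 and 1361 in the wild type of the N1ICD set and 2910 and 2488 in that of the Rbpj set. For Fcgrt the wild type signals were 2065 and 1832 against 3617 and 4994. Rab11a, the recycling GTPase, read 4529 and 3837 against 8657 and 9324. These 3 genes were all higher in the Rbpj set, by 1.88-fold, 2.19-fold and 2.16-fold between geometric means. Myo6 was 2.06-fold higher there, Dab2 1.45-fold, Amn 1.44-fold and Cubn 1.05-fold, with no overlap between the 2 pairs of arrays. Cltc and Lrpap1 overlapped, at 1.16-fold and 1.04-fold. Of the 9 genes 7 were thus higher in the Rbpj set without overlap and 0 were lower, where 46.5% of all tested genes were higher without overlap. The sets differ in strain and cross and carry different dates in their titles, which cannot be told apart, and no test was made across them.

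**Figure D1:**
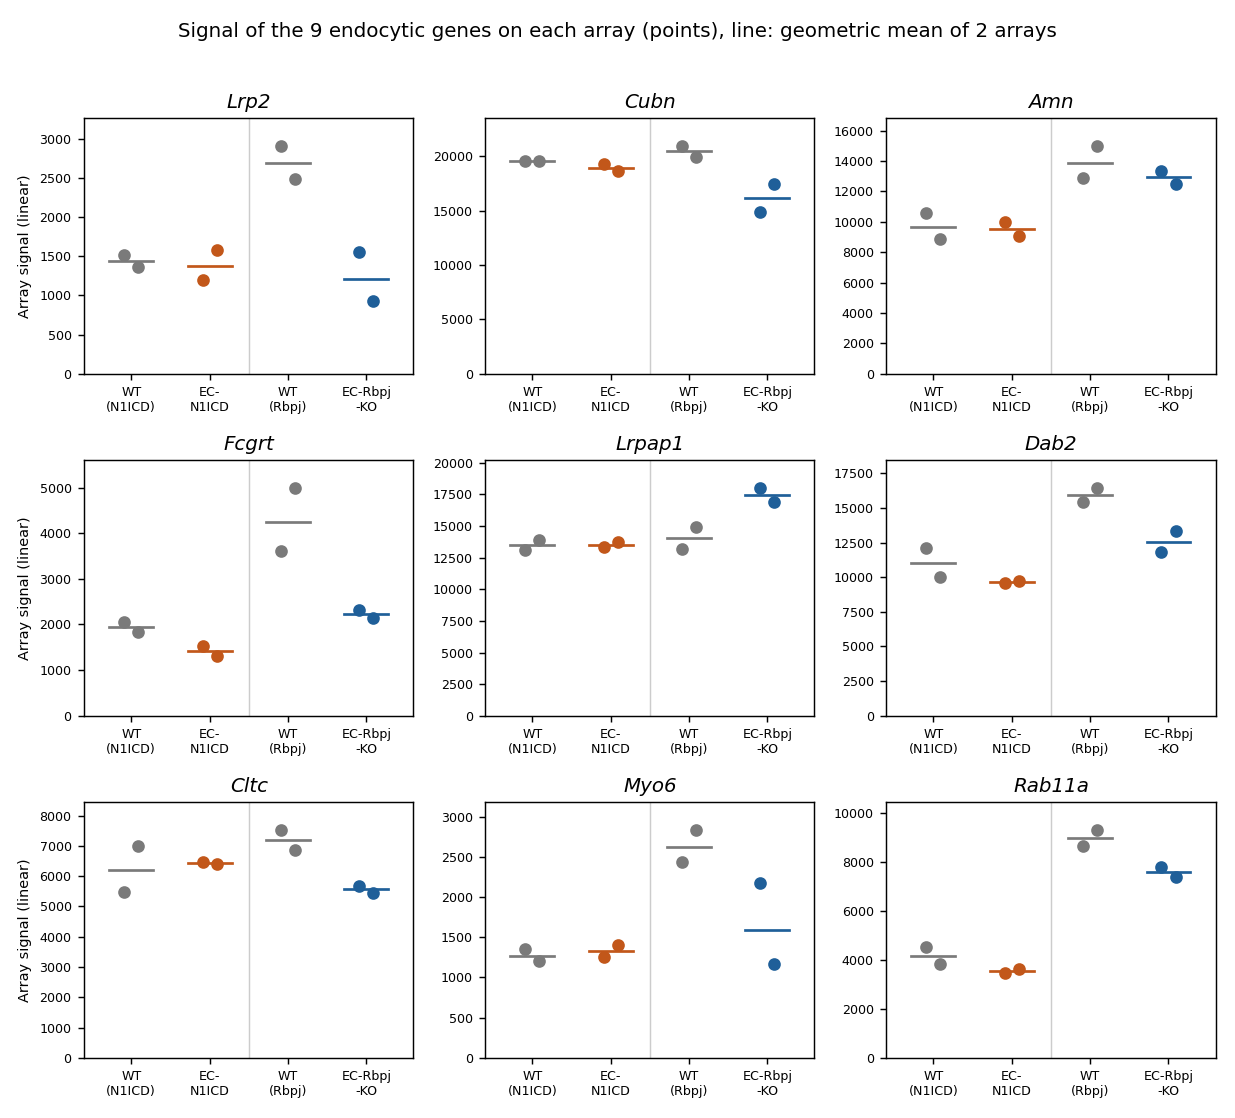
Linear array signal (vertical axis, from 0, a scale of its own for each gene) of the 9 genes on the 8 arrays, by group (horizontal axis). Points are single arrays and lines the geometric mean of the 2 arrays of a group. Grey is wild type, orange EC-N1ICD and blue EC-Rbpj-KO. Lrp2, Fcgrt, Cubn, Dab2, Cltc, Myo6 and Rab11a lie lower in EC-Rbpj-KO than in its wild type without overlap. Lrpap1 lies higher there without overlap, whereas Amn overlaps in both sets.

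On the brightest probe sets, loss of Rbpj was accompanied by lower signal of 3 of the 9 genes, all receptors. Lrp2 was at 0.448 times its wild type level, Fcgrt at 0.525 times and Cubn at 0.788 times. The adaptor gene Dab2 passed, also lower, only on its 3 other probe sets. Amn, which encodes the membrane partner of cubilin, did not pass the test and overlapped its wild type. Lrpap1, which encodes the chaperone that guards newly made megalin, had the single positive change. The 3 genes that fell compare with 2.96% of all tested genes that fell in this model and 4.96% that changed either way (limma adjusted p under 0.05). Since the genes were chosen with earlier results known, such shares are a description and not a test of the set. At an unadjusted p under 0.05 the count was 8 of the 9, 7 lower and 1 higher, beside 19.9% of tested genes. Mutant and wild type arrays did not overlap for 8 of the 9, beside 50.8% of tested genes, and in 7 of these the mutant was lower, beside 27.5%. The median log2 fold change was -0.35 over the 9 genes and -0.02 over all tested genes. With wild type replicate 1 left out 1 of the 9 passed, Fcgrt, and with wild type replicate 2 left out 0 passed. In whole tissue, fewer cells of a type and less RNA per cell cannot be told apart.

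Lrp2 encodes megalin, the large multiligand receptor of the apical membrane. The Rbpj mutant arrays, at 1561 and 931, compare with wild type values of 2910 and 2488. Both mutant arrays were below both wild type arrays, and the mutant arrays differed from each other more than the wild type arrays did. The log2 fold change was -1.16 (SE 0.23, 95% interval -1.66 to -0.66, limma adjusted p = 0.0156). A further probe set of Lrp2 read 1018 and 1096 in the mutant and 2339 and 1637 in wild type, with a log2 fold change of -0.89 (SE 0.18, adjusted p = 0.0224 in the fit over probe sets). The call ended, at adjusted p = 0.103, 0.0604 and 0.0515, without wild type replicate 1, wild type replicate 2 or EC-Rbpj-KO replicate 2 of the Rbpj set, and over all alternatives tried the adjusted p ran from 0.00403 to 0.47.

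Cubn encodes cubilin, a receptor for the intrinsic factor and cobalamin complex and for several carrier proteins. In the mutant it read 14936 and 17440, and in wild type 20980 and 19984. The groups did not overlap, and the difference was small beside that of Lrp2, with a log2 fold change of -0.34 (SE 0.08, 95% interval -0.52 to -0.17, limma adjusted p = 0.0324). This probe set was among the brightest of the array, with 71 of 45101 probe sets above its mean signal, and the highest signal on any array was 36554. The other Cubn probe set read 6496 and 8640 in the mutant and 13900 and 12473 in controls, which is a log2 change of -0.81 (SE 0.12, adjusted p = 0.00436 in the fit over probe sets). The call on the brighter probe set ended with any of 7 arrays left out. The adjusted p was 0.0535 and 0.0524 without EC-N1ICD replicate 1 or 2, 0.0517 and 0.0515 without the wild type of that set, 0.115 without EC-Rbpj-KO replicate 1, and 0.162 and 0.114 without either wild type array of the Rbpj set. It ended also at 0.22 with median centring and 0.108 with no filter on dim genes, in a range of 0.00518 to 0.473 over all alternatives.

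Fcgrt encodes the heavy chain of the neonatal Fc receptor. The mutant arrays gave 2313 and 2150 and the wild type arrays 3617 and 4994. They lay close together in the mutant and well below the wild type arrays, which differed from each other. The log2 fold change was -0.93 (SE 0.17, 95% interval -1.30 to -0.56, limma adjusted p = 0.00994). Without wild type replicate 2, the brighter wild type array, it was -0.70 at adjusted p = 0.122, in a range of 0.00905 to 0.422 over the alternatives. Fcgrt had 1 probe set, so no other probe set could serve as a check. B2m, the light chain of the same receptor, which was named for this pairing after its values were seen, read 7247 and 8275 in the mutant and 7991 and 8092 in wild type and overlapped.

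Amn encodes amnionless, which carries cubilin to the membrane. Signals of 13371 and 12503 in EC-Rbpj-KO lay within or just below the wild type signals of 12864 and 14999. The log2 fold change was -0.10, with a 95% interval from -0.34 to 0.14 (limma adjusted p = 0.647). Amn had 1 probe set. The difference between the changes of Cubn and Amn was not tested.

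Lrpap1 encodes the receptor-associated protein, which keeps ligands off receptors of the megalin family while these mature. Its brightest probe set read 18014 and 16874 in EC-Rbpj-KO and 13211 and 14911 in wild type. Mutant arrays were above wild type arrays without overlap, with a log2 fold change of 0.31 (SE 0.08, 95% interval 0.13 to 0.49, limma adjusted p = 0.052). Of its 3 other probe sets 2 passed the test in the fit over probe sets, 1 at 4005 and 3785 against 2243 and 2459 (log2 fold change 0.73, SE 0.14, adjusted p = 0.0176) and 1 at 3644 and 3539 against 2252 and 2496 (0.60, SE 0.15, adjusted p = 0.0471). The remaining one read 7345 and 6473 against 5013 and 5416 (0.40, SE 0.11, adjusted p = 0.0648). All 4 probe sets were higher in the mutant without overlap.

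Dab2 encodes the adaptor that binds the tails of megalin and its relatives. Its brightest probe set read 11799 and 13322 in EC-Rbpj-KO and 15443 and 16446 in wild type, lower without overlap, at a log2 fold change of -0.35 (SE 0.10, limma adjusted p = 0.0781). The 3 other probe sets all passed in the fit over probe sets. The largest of these changes was at a probe set with 3461 and 3064 in the mutant and 6407 and 8272 in controls, at a log2 change of -1.16 (SE 0.17, adjusted p = 0.00445). The next read 1126 and 1317 against 2119 and 2047 (-0.77, SE 0.15, adjusted p = 0.0172), and the dimmest 236 and 212 against 448 and 387 (-0.90, SE 0.19, adjusted p = 0.0263). The size of the Dab2 difference thus depended on the probe set, while its direction did not.

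Cltc encodes the clathrin heavy chain, which forms the cage of the vesicle. Its signal, 5673 and 5460 in the mutant and 7532 and 6878 in wild type, did not overlap (log2 fold change -0.37, SE 0.12, limma adjusted p = 0.107). Myo6, the motor that moves toward the minus end of actin, read 2175 and 1162 against 2432 and 2839 (-0.73, SE 0.24, adjusted p = 0.114). On this probe set the 2 mutant arrays stood far apart, as on the brightest of Lrp2, with EC-Rbpj-KO replicate 2 the lower in both. The next brightest Myo6 probe set read 594 and 710 against 918 and 887 (-0.47, SE 0.18, adjusted p = 0.164 in the fit over probe sets). There, as on the other Lrp2 probe set at 1018 and 1096, replicate 2 was the higher. Rab11a read 7808 and 7381 against 8657 and 9324 (-0.24, SE 0.11, adjusted p = 0.246). None of these 3 passed the test. Without EC-Rbpj-KO replicate 1, the mutant array with high Xist, the brightest Myo6 probe set was at -1.18. Without EC-Rbpj-KO replicate 2 it was at -0.27, so the value of that probe set rests on 1 array.

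Over all probe sets of the 9 genes, 22 in number with 20 bright enough to be fitted, 8 were lower and 2 higher in EC-Rbpj-KO at an adjusted p under 0.05. Among all 17839 probe sets fitted, 2.81% were lower and 1.35% higher. For Cubn, Dab2, Lrpap1 and Rab11a the brightest probe set had the smallest change of its gene. For Lrp2, Myo6 and Cltc the brightest probe set had the largest change among the fitted ones. The part of signal level in these differences was not tested.

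**Figure D2:**
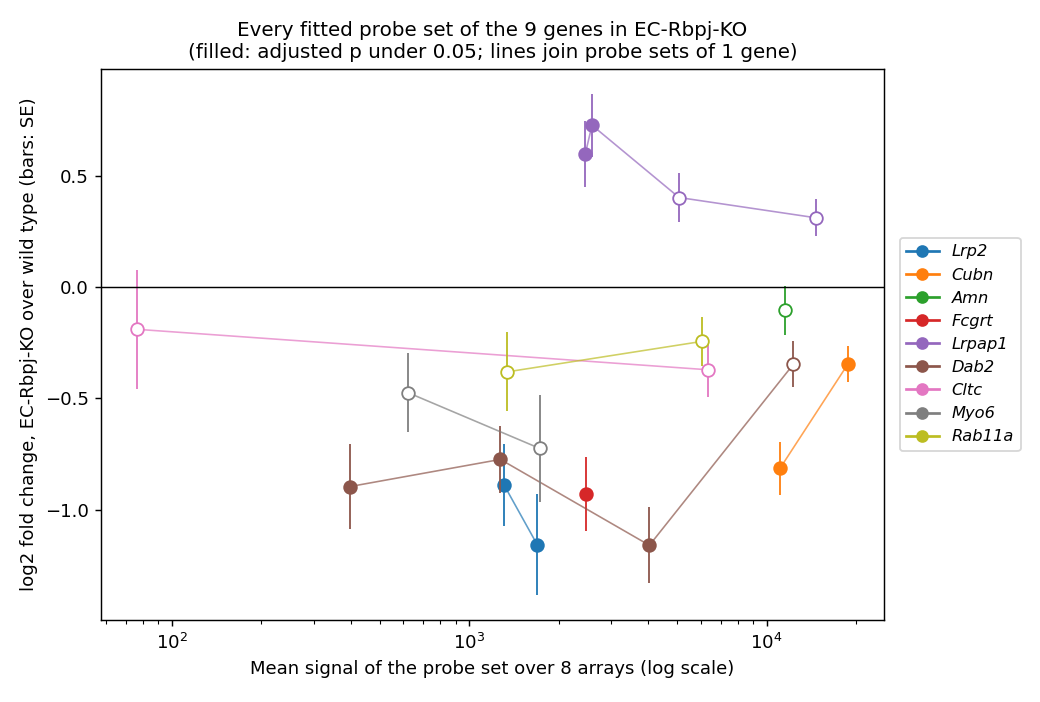
Log2 fold change in EC-Rbpj-KO over wild type (vertical axis, bars SE) against mean signal over the 8 arrays (horizontal axis, log scale) for the 20 fitted probe sets of the 9 genes. Lines join probe sets of 1 gene and filled points had an adjusted p under 0.05. The brightest probe sets of Cubn, Dab2, Lrpap1 and Rab11a lie nearer to 0 than the dimmer probe sets of the same genes, and every Lrpap1 point lies above 0.

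Activation of Notch1 in the endothelium left the receptors without a change that passed the test. Of the 9 genes 0 had an adjusted p under 0.05 (limma), beside 0.596% of all tested genes and 0.22% that fell, 1 had an unadjusted p under 0.05, beside 12%, and the methods' t-test called 0. Over the 20 fitted probe sets the count was also 0, beside 0.37% of all. Groups did not overlap for 4 of the 9, all lower in the mutant, beside 42.6% of all tested genes in either direction. Among the other probe sets of these genes, those lower without overlap were of Dab2 and Rab11a, as on their brightest. Those higher without overlap were of Lrp2, Cubn, Lrpap1, Cltc and Myo6. The share of all probe sets without overlap was not computed. Of the 4 genes lower on the brightest probe set, only Cubn had another that was higher, at a log2 fold change of 0.04 against -0.05. The median log2 fold change was -0.05 over the 9 genes and 0.01 over all tested genes.

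Fcgrt came nearest to the threshold, with 1528 and 1310 in EC-N1ICD against 2065 and 1832 in its wild type. These arrays did not overlap, and the log2 fold change was -0.46 (SE 0.17, 95% interval -0.83 to -0.09, limma adjusted p = 0.275, unadjusted p = 0.0185). Lrp2 read 1202 and 1584 against 1512 and 1361 and overlapped (-0.06, 95% interval -0.55 to 0.44). Cubn read 19269 and 18635 against 19542 and 19609, a gap of a few percent without overlap (-0.05, 95% interval -0.22 to 0.13). For Amn the signals were 9976 and 9056 against 10593 and 8845 (-0.03, 95% interval -0.26 to 0.21). The interval of Lrp2 is the widest of these 3. With sex as a term in the fit, which in this set goes with genotype and is estimated from the EC-Rbpj-KO pair alone, Lrp2 was at -0.80 (adjusted p = 0.282), so these intervals give no bound on the change that is free of sex.

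Of the intracellular members, Dab2 read 9598 and 9711 in EC-N1ICD against 12109 and 9984, lower without overlap (log2 fold change -0.19, SE 0.10, limma adjusted p = 0.517). Rab11a read 3483 and 3625 against 4529 and 3837, also lower without overlap (-0.23, SE 0.11, adjusted p = 0.445). Lrpap1 at 13318 and 13730 against 13099 and 13922, Cltc at 6480 and 6407 against 5471 and 7000 and Myo6 at 1261 and 1407 against 1353 and 1199 overlapped. Their log2 fold changes were 0.00, 0.06 and 0.06. The other Lrpap1 probe sets were at 0.04, 0.22 and 0.42, those at 0.22 and 0.42 higher without overlap. None of them passed in the fit over probe sets.

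**Figure D3:**
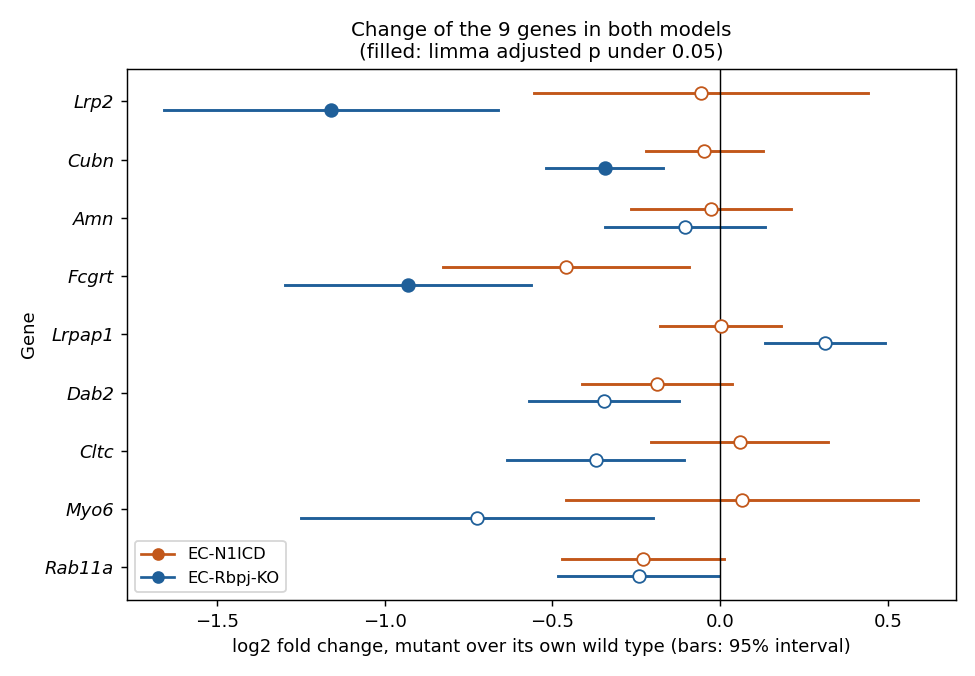
Log2 fold change of each gene (vertical axis) in EC-N1ICD (orange) and EC-Rbpj-KO (blue) over its own wild type (horizontal axis), with 95% intervals as bars. Filled points had a limma adjusted p under 0.05. Lrp2, Fcgrt and Cubn are filled in EC-Rbpj-KO, no gene is filled in EC-N1ICD, and Lrpap1 is the single gene of EC-Rbpj-KO to the right of 0.

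Whether the 2 models differed was tested directly. The difference between the log2 changes, EC-N1ICD minus EC-Rbpj-KO, passed for 0 of the 9 genes at an adjusted p under 0.05 (limma), beside 0.266% of tested genes, and 5 had an unadjusted p under 0.05, beside 10.8%. For Lrp2 the difference was 1.10 (95% interval 0.40 to 1.81, adjusted p = 0.259, unadjusted p = 0.00535). For Fcgrt, lower in both mutants, it was 0.47 (95% interval -0.05 to 0.99, adjusted p = 0.518). Cubn gave 0.30 (adjusted p = 0.362) and Lrpap1 -0.31 (adjusted p = 0.354). Without EC-Rbpj-KO replicate 1 the count was 2, Lrp2 and Myo6. A difference in response between the models was therefore not established for any of the 9 genes.

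The wider pathway was examined in 5 lists with 121 genes, of which 113 had a probe set and 104 were tested. In EC-Rbpj-KO 7 fell and 1 rose, 7.69% of those tested, beside 4.96% of all tested genes. In EC-N1ICD 1 fell and 0 rose, 0.962% beside 0.596%. The median log2 fold change over the 104 was -0.05 in EC-Rbpj-KO and 0.00 in EC-N1ICD. The count in EC-Rbpj-KO was 2 without wild type replicate 1, 1 without wild type replicate 2, and 3 without EC-Rbpj-KO replicate 2. It was also 3 and 4 without EC-N1ICD replicate 1 or 2 and 5 without wild type replicate 1 of the N1ICD set.

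Among other endocytic receptors, 11 tested, Tfrc fell in both models. It encodes the transferrin receptor, which clathrin vesicles take up with iron-loaded transferrin and which erythroid precursors use heavily. With Rbpj lost it read 535 and 807 beside 2691 and 2470 (log2 fold change -1.97, SE 0.30, limma adjusted p = 0.00382). In EC-N1ICD it read 1121 and 2333 against 4425 and 5779 (-1.64, SE 0.30, adjusted p = 0.0337). All its probe sets were lower in both models. The second brightest was at -0.58 in EC-Rbpj-KO and -1.16 in EC-N1ICD and passed in neither. The EC-N1ICD call ended without EC-N1ICD replicate 1 or without either wild type array of that set, which left 0 pathway genes called. With sex in the fit, which goes with genotype in this set, Tfrc was at -1.05 in EC-N1ICD (adjusted p = 0.391) and Cd36, a fatty acid receptor, was the 1 pathway gene called. Over all alternatives the adjusted p of Tfrc in EC-N1ICD ran from 0.00384 to 0.624. Vldlr, a lipoprotein receptor of the same family as Lrp2, rose in EC-Rbpj-KO from 143 and 62 to 246 and 383 (1.70, SE 0.44, adjusted p = 0.0477), at low signal. In EC-N1ICD it read 184 and 155 against 92 and 40 (1.48, adjusted p = 0.185).

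Of 30 tested genes of the clathrin coat and its adaptors 3 fell and 0 rose in EC-Rbpj-KO. Hip1r, which links coats to actin, read 598 and 625 against 1113 and 1088 (-0.85, SE 0.16, limma adjusted p = 0.0111). Synj2, an inositol phosphatase of uncoating, read 176 and 171 against 320 and 321 (-0.89, adjusted p = 0.0291). Fcho2, an early nucleator of the pit, read 772 and 653 against 1297 and 1014 (-0.69, adjusted p = 0.0477). The list's median was -0.09, with 21 genes lower and 9 higher. In EC-N1ICD none of the 30 passed, and Hip1r, with 1 of the smallest p-values of the pathway, read 339 and 377 against 521 and 518 (-0.54, adjusted p = 0.175).

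Of 38 tested genes of endosome sorting and recycling 3 fell and 0 rose in EC-Rbpj-KO, with a list median of -0.06. Eea1, the tether of early endosomes, read 655 and 422 against 1006 and 1037 (-0.96, SE 0.22, limma adjusted p = 0.0328). Snx2, a retromer-linked sorting nexin, read 3025 and 2352 against 3771 and 4375 (-0.61, adjusted p = 0.0358). Rab11fip3, an effector of the Rab11 GTPases, read 282 and 216 against 397 and 460 (-0.79, adjusted p = 0.0499). The other Rab11fip3 probe set, at lower signal, was at 0.12, and Eea1 and Snx2 had no other. None of the 38 passed in EC-N1ICD.

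No gene of the other 2 lists passed in either model. Over 12 tested genes of the apical microvillus the median was 0.12 in EC-Rbpj-KO, with 10 higher, and -0.01 in EC-N1ICD, where Eps8, an actin capping protein of microvilli, read 1882 and 2110 against 3332 and 2819 (-0.62, SE 0.13, limma adjusted p = 0.0666). Over 13 tested ligands and partners, 5 of which also stand in the endoderm marker list, the medians were -0.07 and 0.00.

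**Figure D4:**
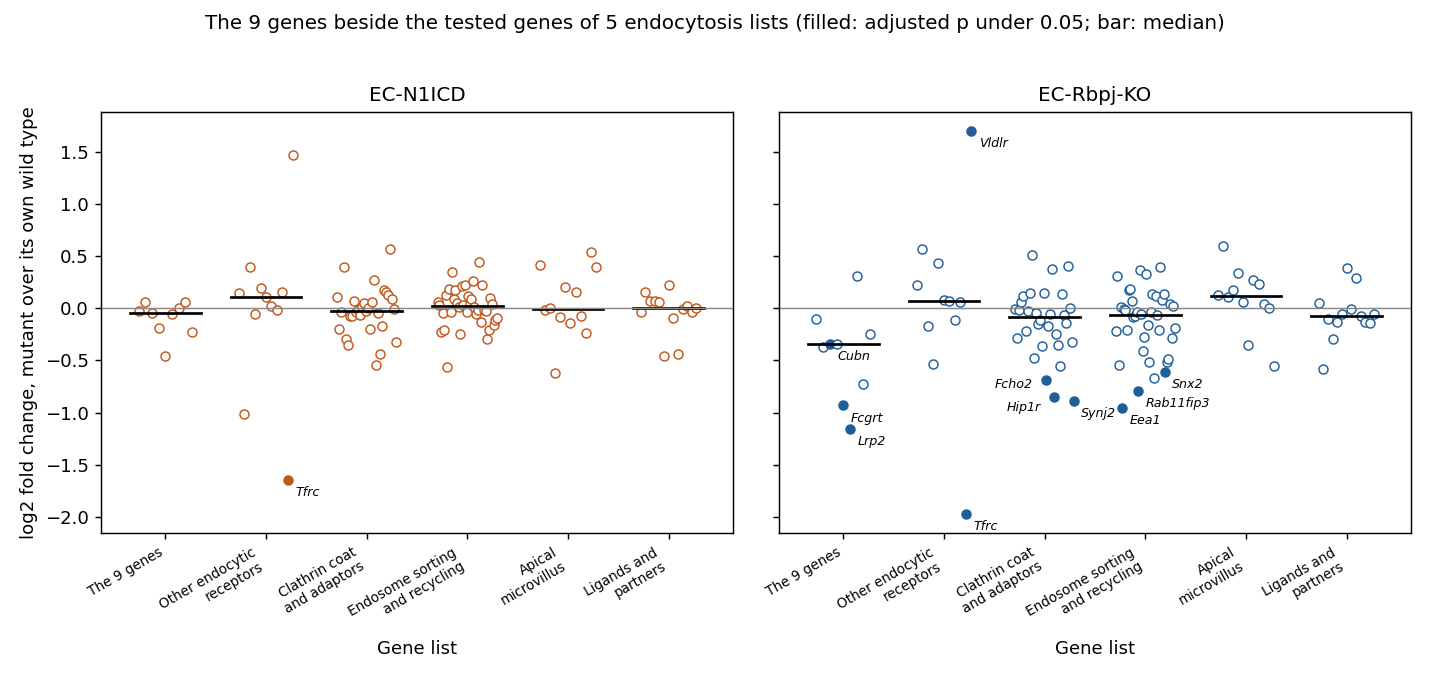
Log2 fold change over the own wild type (vertical axis) of the 9 genes and of the tested genes of 5 endocytosis lists (horizontal axis), with EC-N1ICD on the left and EC-Rbpj-KO on the right. Points are genes, filled where the limma adjusted p was under 0.05, and bars are list medians. The median of the 9 genes lies at -0.35 in EC-Rbpj-KO, and the medians of the 5 lists lie between -0.09 and 0.12.

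Markers of the cell types of the yolk sac were read beside these results. Summed signal of the 17 endoderm markers was 170377 and 176735 with Rbpj lost, beside 176807 and 188674, and 179509 and 175224 in EC-N1ICD against 181178 and 183370. Of these markers 0 fell and 1, Sox17, a transcription factor of endoderm and of arterial endothelium, rose in EC-Rbpj-KO, and the median log2 fold change was -0.11. Of the 17 markers 12 were lower and 5 higher, between -0.42 and 1.39.

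Fcgrt and Dab2 are also expressed by macrophages. The summed signal of 10 macrophage markers was 4776 and 3559 with Rbpj lost, beside 3228 and 2781, and 3071 and 2635 in EC-N1ICD against 2724 and 3005. In EC-Rbpj-KO 5 of 9 tested markers rose, among them Csf1r at 2497 and 1935 against 965 and 599, and 2 fell, among them Fcgr3 at 293 and 338 against 1322 and 1366. In EC-N1ICD 1 of the 9 rose, Ly86 (log2 fold change 2.09, limma adjusted p = 0.029, at low signal), and 0 fell. There 6 of the 9 were higher and 3 lower, with a median log2 fold change of 0.75. None of the 10 was below the array median on every array. The summed signal of 10 endothelial markers was 3556 and 2480 against 2130 and 2082 in the Rbpj set, where Cldn5 rose from 302 and 273 to 1095 and 715 and Kdr read 462 and 350 against 401 and 390. It was 3420 and 3266 against 3905 and 2890 in the N1ICD set. Pecam1 was below the array median on all 8 arrays.

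The 9 erythroid markers summed to 53934 and 66196 with Rbpj lost, beside 68796 and 66685, and to 47286 and 80728 in EC-N1ICD against 91688 and 96116. None of the 9 passed in either model, and all 9 were lower in both, with medians of -0.53 and -1.18. Hbb-y read 23136 and 24729 against 24018 and 25076 and 20182 and 25388 against 25488 and 27805. Hbb-bh1 read 19979 and 23489 against 24701 and 25074, and 17777 and 29656 against 33045 and 36554. The 10 mesenchymal and mesothelial markers summed to 49795 and 47910 against 44843 and 43310 in the Rbpj set and to 52760 and 49269 against 41397 and 40519 in the N1ICD set. Of these 10, 1 rose in EC-N1ICD, Tagln (log2 fold change 1.56, limma adjusted p = 0.00275). In EC-Rbpj-KO 1 fell, Pdgfra (-0.83, adjusted p = 0.0436). Col3a1 and Col1a2, the brightest of the list, did not pass in either model. Of 11 decidua and trophoblast markers 7 had a probe set and 4 of those were below the array median on every array. These summed to 869 and 1223 against 1199 and 942 in the Rbpj set and to 2870 and 2636 against 999 and 1590 in the N1ICD set, where Plac1 read 2433 and 1934 against 558 and 1047 and Hand1 132 and 143 against 216 and 130. The part of these cell types in the members' differences was not tested.

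The 3′ to 5′ signal ratio of the Gapdh control probes, a sign of RNA integrity, was 4.64 and 3.45 with Rbpj lost, beside 3.17 and 3.51, and 2.43 and 2.48 in EC-N1ICD against 3.12 and 2.76. That of Actb was 2.29 and 2.09 against 1.9 and 1.84, and 1.72 and 1.75 against 2.1 and 2.34. Its part in the members' differences was not tested.

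Patterns closest to the receptors over the 8 arrays were found by the mean absolute difference of log2 signal, each array taken relative to its own wild type mean. Nearest to Lrp2 were Spry2 at 0.106, Raph1 at 0.123 and 4932438A13Rik at 0.131. Nearest to Cubn were Hacd1 at 0.026, Fndc3a at 0.035 and Brix1 at 0.038. Amn was matched by Mfsd11 at 0.026, Ddost at 0.038 and Ndfip2 at 0.041. No other member was among the 3 nearest of any of these receptors.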

How the data were processed

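Whole yolk sac RNA from 8 embryonic day 9.5 samples, 2 in each of 4 groups, was hybridised to Affymetrix mouse arrays by the authors. The deposited values were linear signal intensity for 45101 probe sets, processed with MAS5 per the submitters' processing notes. Version, scaling and detection calls were not given in the sources used here. Probe sets were named through the platform annotation, keeping those of 1 gene (34958 probe sets, 18194 genes). Tests with limma on log2 signal took the 10913 genes whose mean over arrays exceeded the 40th percentile, and used version 3.58.1 in R 4.3.3 (4-group fit, moderated with a mean trend, Benjamini-Hochberg threshold 0.05). The 20 fitted probe sets of the members were tested in a like fit over 17839 probe sets. The procedure was tested on simulated data. The precision is limited by the 2 arrays in each group. The members, gene lists and tests were chosen with earlier results of these data known. Named besides the members were the pathway genes that passed, or the 3 of smallest p where fewer than 3 did, the 2 brightest tested markers of each list, Rbpj, Xist and Eif2s3y, and the 3 genes of closest pattern. The markers Sox17, Ly86, Tagln and Pdgfra were named because they passed, and Cd36 because it passed with sex in the fit. Alternatives covered the additive constant, array scaling, filter, probe set, variance model, sex, the methods' t-test and each array left out. Promoter windows came from RefSeq (GRCm38.p6). Listed genes without a probe set of 1 gene were not analysed here.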

Additional observations from a re-analysis of the deposited data

How the results depend on the processing

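The count of members that changed in EC-Rbpj-KO was 3 as reported. It was 6 with the mean of all probe sets, namely Lrp2, Cubn, Fcgrt, Dab2 and Myo6 lower and Lrpap1 higher, 1 (Fcgrt) without the variance trend, 1 (Fcgrt) with the arrays of the set alone, 1 (Cltc) by the methods' t-test unadjusted and 0 by it after adjustment. With 1 array left out it ranged from 0 to 3. In EC-N1ICD it was 0 under each alternative. The count whose change differed between the models, 0 as reported, ranged from 0 to 2 with 1 array left out. The count of pathway genes in EC-N1ICD, 1 as reported, was 2 with median centring, 2 with quantile normalization, 0 with the mean of all probe sets, 0 without the trend, 9 by the methods' t-test unadjusted, 0 by it adjusted and 0 with the probe set of second highest signal, an alternative chosen after seeing the data, and ranged from 0 to 2 with 1 array left out. In EC-Rbpj-KO, 8 as reported, it was 5 with a filter at the 60th percentile, 4 with no filter, 3 without the trend, 2 with the arrays of the set alone, 0 by the t-test adjusted and 5 with the second probe set, and ranged from 1 to 9 with 1 array left out. Over all tested genes, 541 changed in EC-Rbpj-KO and 65 in EC-N1ICD. With 1 array left out these counts ran from 147 to 628 and from 7 to 140. With the arrays of the set alone they were 266 and 103, with median centring 675 and 106, with quantile normalization 660 and 118, with sex in the fit 614 and 15, with the stricter filter 407 and 27, with the second probe set 445 and 38, and with the t-test 1313 and 939 unadjusted and 1 and 0 adjusted.

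Log2 fold changes that turned sign were all short of the threshold under every setting. In EC-N1ICD Lrp2 was at 0.0445 with the mean of all probe sets and 0.29 with the second probe set, Cubn at 0.0188 with quantile normalization, 0.18 with sex in the fit and 0.0379 with the second probe set, Lrpap1 at -0.0132 with median centring and -0.0924 with sex, and Myo6 at -0.84 with sex (adjusted p = 0.231) and -0.16 with the second probe set. With 1 array left out, Lrp2 ran from -0.26 to 0.14, Amn from -0.16 to 0.10, Lrpap1 from -0.042 to 0.0459, Cltc from -0.12 to 0.24 and Myo6 from -0.0226 to 0.15 in EC-N1ICD, and Amn from -0.21 to 0.0074 in EC-Rbpj-KO. Lrp2 in EC-N1ICD kept its sign with sex in the fit but was at -0.80. The sex term is estimated from the EC-Rbpj-KO pair alone, so these values rest on the difference between its 2 arrays. The cause was not tested. No paired analysis was possible because replicate numbers follow accession order and, by the leading number of the titles, replicate 1 of each mutant has no wild type partner. Replicate 2 of each mutant shares its leading number with both wild type arrays of its set. The change within that number is the one without replicate 1, which leaves 1 mutant array. For Fcgrt, Lrp2 and Cubn it was -0.98, -1.53 and -0.23 in EC-Rbpj-KO and -0.57, 0.14 and -0.07 in EC-N1ICD. In the Rbpj set, replicate 1 of the mutant is also the array with high Xist, so leading number and sex cannot be told apart there.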
